A study of Arabidopsis thaliana with 17 samples.

Results

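In hypocotyls of Arabidopsis thaliana cut and kept for up to 24 h, 99 of 28642 listed genes were expressed before the culture and stayed at least 3-fold lower at every later time that was sampled. They were chosen from their mean RPKM (reads per kilobase of gene model, scaled to the mapped reads of the library). The 0 h mean had to reach 10 RPKM, and the 0 h mean plus 1 had to be at least 3 times the mean plus 1 at each of 1, 3, 6, 12 and 24 h. Of the 10106 genes with a 0 h mean of at least 10 RPKM, the 99 were 0.98%. Every difference between 0 h and a later time was therefore used to choose the genes and is given as a description, without a test. The differences among the later times were not used in this way and were tested, but the choice bounds each later level, so that a gene that came back past the 3-fold limit at any time could not be among the 99.

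Seedlings were raised in darkness on MS-0 medium, their etiolated hypocotyls were cut, and the pieces stayed in darkness on the same medium for 0, 1, 3, 6, 12 or 24 h. No ecotype, mutant or added hormone is named in the labels, and uncut hypocotyls of matching age in culture were not analysed here, so that cutting and hours in culture cannot be told apart. Each time had 3 stranded mRNA libraries, and 24 h had 2. Nothing in the labels tells whether the libraries of a time came from separate plants, so every p-value here speaks only for the spread among these libraries, which may be technical.

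A dark-grown seedling lives on its seed reserves. Its hypocotyl lengthens by loosening and rebuilding cell walls under the control of auxin, brassinosteroids and the PIF transcription factors. Plant tissue that runs short of sugar turns on a set of dark-inducible genes, through the energy-sensing kinase SnRK1 among others, which serve the breakdown of amino acids, lipids and wall polysaccharides. Sugar supply and wounding are both known to change the level of such transcripts.

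Between 7717255 and 7872179 mapped reads were recovered from the steps of the RPKM values in 14 libraries, with 20740957 in 0 h replicate 1 and 11760741 and 11736568 at 24 h. At these depths 3 reads on a transcript of 1 kb are worth 0.145 to 0.389 RPKM, a limit that covers counting error only. Markers of root hairs, of the shoot apex and of seed storage cells checked the tissue. The 3 shoot apex genes summed to 0.373 to 3.06 RPKM at 0 h, uneven among the libraries, and to at most 1.52 RPKM in any later library. All 3 root hair genes were under 1 RPKM at every time, and the 7 seed storage genes summed to 0.321 to 0.611 RPKM at 0 h and to at most 11.4 RPKM in any later library. Summed levels of 3 xylem genes were 58.8 to 72.4 RPKM at 0 h, 34.2 to 58.7 RPKM from 1 to 12 h and 9.47 to 13.6 RPKM at 24 h. The 2 epidermis genes summed to 6.86 to 12.01 RPKM at 0 h and 1.14 to 3.14 RPKM at 24 h, and the 2 phloem genes to between 44.6 and 74.95 RPKM throughout. The 5 light harvesting genes summed to 9.83 to 35.8 RPKM from 0 to 3 h, 4.28 to 5.04 RPKM at 6 h, 28.6 to 139.7 RPKM at 12 h and 25.5 to 27.6 RPKM at 24 h. In bulk tissue, fewer cells of a type and less RNA per cell cannot be told apart, and the part of these shifts in the results was not tested.

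The 99 genes covered a wide range of levels at 0 h, with means of 10.5 to 1268 RPKM and a median of 61.1 RPKM. Means of at least 100 RPKM were found for 33 genes. The median level left, as a percent of the gene's own 0 h mean, was 22.0%, 9.42%, 10.3%, 14.7% and 14.4% at the 5 later times in turn. At 1 h only 1 gene, AT3G63210 (a gene annotated as a mediator of ABA-regulated dormancy), was under 10% of its 0 h mean. The numbers under that level were 52, 46, 34 and 39 at 3, 6, 12 and 24 h. The lowest mean fell at 3 h for 39 genes, at 6 h for 24 and at 24 h for another 24, against 6 each at 1 h and 12 h. For 64 genes the highest later mean was the one at 1 h, so the choice of genes rested most often on 1 h.

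**Figure D1:**
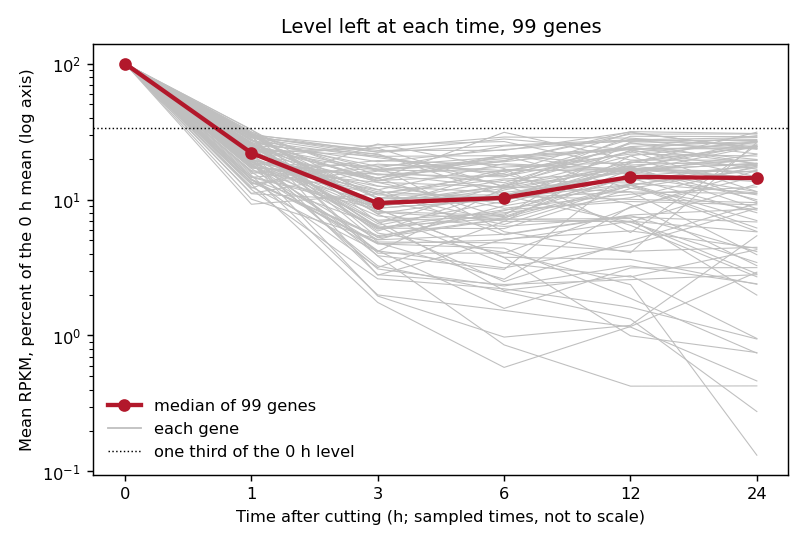
Mean RPKM at each sampled time (x axis, h, not to scale) as a percent of the 0 h mean (y axis, log scale) for each of the 99 genes (grey lines), with their median (red, 22.0% at 1 h and 14.4% at 24 h). The dotted line marks a level 3-fold under the 0 h mean, without the 1 that the choice of genes adds to each mean, and the lines fan out below it with time.

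Being low at every time was the less common course among genes that were low early. Of the 10106 genes, 382 were at least 3-fold lower at 1 h, and 886, 915, 517 and 550 were at 3, 6, 12 and 24 h. The 99 genes were 25.9% of the 382 that were low at 1 h. Another 115 genes were low at 1 h alone and 80 at 1, 3 and 6 h but not after, while 201 were low at 3, 6, 12 and 24 h but not yet at 1 h. Closest inside the limit were AT3G16370, a lipase gene of the GDSL family, NAC2, a NAC transcription factor gene, and EXPA11, an expansin gene, each with a ratio of 3.01 to the next highest time. Closest outside it were the protein kinase gene AT4G01330, AT1G19530 and the fatty acid elongation gene KCS10, each with a ratio of 2.99.

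The 0 h libraries did not give the same values for these genes. Means at 0 h and 1 h were used to choose them, so a single high 0 h library or low 1 h library helped a gene to be chosen. The comparisons with all genes below are therefore descriptions and partly reflect the choice. The coefficient of variation among the 3 libraries at 0 h had a median of 27.1% over the 99 genes, against 8.79% over the 10106 genes. At 1 h it was 20.6% over the members that still had at least 10 RPKM, against 8.30% over all genes at that level, and from 3 h on it was closer, with 8.23% against 6.74% at 3 h. Of the 99 genes, 68 (68.7%) were highest in 0 h replicate 3 and 23 (23.2%) were lowest there, against 40.8% and 39.7% of the 10106 genes. Replicate 3 was at least 1.5 times the mean of replicates 1 and 2 for 35 members (35.4%, against 1.90% of the 10106 genes). It was at most 0.5 times that mean for 11 members (11.1%, against 1.76%). At 1 h, replicate 1 was the lowest library for 68 genes and replicate 2 the highest for 59, and 48 genes were lowest in replicate 1 at both 0 h and 1 h.

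**Figure D2:**
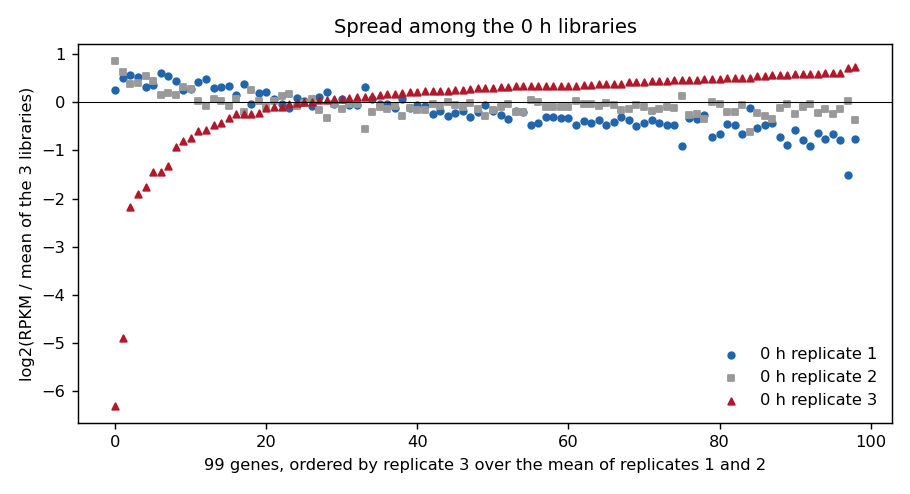
The 3 libraries at 0 h for each of the 99 genes: log2 of the RPKM over the mean of the 3 (y axis), with genes ordered by replicate 3 over the mean of replicates 1 and 2 (x axis). Replicate 3 (red triangles) was highest for 68 genes, at the right, and lowest for 23, at the left, with RGF6 and EXPA11 farthest down.

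Most kinds of genes were more often highest than lowest in replicate 3, as the 99 were, and the exceptions were small groups. Of the 8 genes annotated as dark-inducible or with dormancy and senescence, 7 were highest and 0 lowest in replicate 3. Of the 12 catabolic and other enzymes 10 were highest and 1 lowest. Highest there were also 8 of 10 signalling, 8 of 10 transport and 7 of 10 transcription genes. The same held for 6 of 8 wall genes, 4 of 4 non-coding genes and 16 of 25 other or uncharacterized genes. Of the 6 lipase and cuticle genes, 1 was highest and 5 were lowest, and of the 6 auxin, peptide and growth genes 1 was highest and 4 were lowest. CASP1, the membrane protein gene that marks the endodermis and is not among the 99, had 104, 84.5 and 8.63 RPKM in 0 h replicates 1, 2 and 3. It had 49.6, 40.1 and 5.89 RPKM at 1 h, 2.55, 14.9 and 3.73 RPKM at 3 h, and 1.79, 9.11 and 1.65 RPKM at 6 h. At 12 h it had 31.3, 46.2 and 17.1 RPKM and at 24 h 115 and 132 RPKM, so it was low at 3 h and 6 h and high again at 24 h. Whether the cells sampled had a part in the values of replicate 3 was not tested.

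Leaving out 0 h replicate 3, 76 of the 99 genes still met the limits, among 108 in all. The 23 that no longer met them were all highest in that library, and included BGAL1, BGAL7, BCE2, BT2, AGT, HGO, AKINBETA1 and NAC2. Without 0 h replicate 1, 12 genes were lost, among them RGF6, EXPA11, WSD1 and HBI1. Without 1 h replicate 1, 10 were lost and without 1 h replicate 3, 7 were. In all, 61 genes met the limits whichever single library was left out. With the 0 h level taken from replicates 1 and 2 alone, the median level left was 22.2%, 10.998%, 11.5%, 16.6% and 15.9% at the 5 later times in turn. Every 0 h library lay above every later library for 93 of the 99 genes, against 22.1% of the 10106 genes, a count that the choice of genes largely fixes.

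The dark-inducible, dormancy and senescence genes were abundant before the culture, with 0 h means of 81.6 to 1268 RPKM in that group of 8, and their later courses differed. SEN1 (AT4G35770), a marker of darkness and senescence, had 234, 311 and 559 RPKM at 0 h, 26.9, 48.7 and 55.2 RPKM at 1 h, and 9.11, 10.2 and 9.46 RPKM at 3 h. Its later libraries gave 7.35, 10.4 and 6.602 RPKM at 6 h, 9.56, 4.33 and 3.94 RPKM at 12 h, and 3.07 and 3.86 RPKM at 24 h. All 14 later values lay under the lowest at 0 h, and all 8 values from 6 h on lay under all 3 at 1 h. SEN1 was lower at 3 h than at 1 h, a log2 difference of -2.01 (SE 0.34, limma adjusted p = 0.000144), and lower at 24 h than at 1 h by -3.26 (SE 0.38, limma adjusted p = 2.44e-06). DIN10 (AT5G20250), a raffinose synthase family gene induced in darkness, had 147, 229 and 388 RPKM at 0 h, 20.9, 40.5 and 41.3 RPKM at 1 h, and 13.6, 16.2 and 11.7 RPKM at 3 h. Afterwards its levels were 17.5, 20.8 and 16.8 RPKM at 6 h, 19.3, 17.03 and 15.8 RPKM at 12 h, and 31.6 and 34.5 RPKM at 24 h. Its values at 24 h lay above those at 3, 6 and 12 h and within the range at 1 h, and the difference of 24 h from 12 h did not pass the test, at 0.89 (SE 0.33, limma adjusted p = 0.0753).

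BCE2 (AT3G06850), the acyltransferase subunit of the enzyme complex that breaks down branched-chain amino acids, had 47.8, 73.9 and 123.2 RPKM at 0 h, 17.7, 27.4 and 26.3 RPKM at 1 h, and 8.59, 8.68 and 8.002 RPKM at 3 h, and means of 8.41 to 9.27 RPKM from 6 h on. BCE2 thus had its whole drop within 3 h, at -1.37 (SE 0.25, limma adjusted p = 0.000242) for 3 h against 1 h, and none of the later steps passed the test. BT2 (AT3G48360), a BTB and TAZ domain scaffold gene, had 138, 129.7 and 231 RPKM at 0 h, 46.4, 59.01 and 51.1 RPKM at 1 h, and 23.2, 21.9 and 25.4 RPKM at 3 h. The rest of the course gave 58.8, 52.1 and 44.7 RPKM at 6 h, 35.8, 26.8 and 34.7 RPKM at 12 h, and 32.9 and 31.8 RPKM at 24 h. BT2 had a second peak, higher at 6 h than at 3 h by 1.10 (SE 0.18, limma adjusted p = 0.00027) and lower at 12 h than at 6 h by -0.66 (SE 0.18, limma adjusted p = 0.00684).

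The most abundant member was AT2G33830, named in RefSeq as a dormancy and auxin associated protein, with 939, 1154 and 1711 RPKM at 0 h, 193, 413 and 353 RPKM at 1 h, and 98.9, 108 and 92.2 RPKM at 3 h. It then had 134, 146 and 125 RPKM at 6 h, 78.4, 92.1 and 88.3 RPKM at 12 h, and 37.2 and 50.04 RPKM at 24 h. No library at 24 h overlapped any earlier one, and the gene was lower at 24 h than at 1 h by -2.79 (SE 0.27, limma adjusted p = 3.16e-07). A second gene of that family name, AT1G56220, kept 28.6%, 16.6%, 19.4%, 30.3% and 30.3% of its 0 h mean at 1, 3, 6, 12 and 24 h. AT5G03230, annotated as a senescence regulator, and AT3G63210 went the other way late. AT5G03230 had 104, 92.4 and 96.5 RPKM at 0 h, 11.6, 8.83 and 15.8 RPKM at 1 h, and 3.08, 5.399 and 3.65 RPKM at 3 h. The 8 other libraries gave 13.3, 14.8 and 7.64 RPKM at 6 h, 22.7, 19.7 and 19.005 RPKM at 12 h, and 26.3 and 25.99 RPKM at 24 h. It was higher at 24 h than at 1 h by 1.09 (SE 0.25, limma adjusted p = 0.000943). AT3G63210 had 12.96, 15.7 and 16.6 RPKM at 1 h, 19.7, 17.1 and 17.1 RPKM at 3 h, and 30.7, 21.9 and 23.7 RPKM at 6 h. With 49.6, 53.6 and 48.4 RPKM at 12 h and 31.96 and 45.8 RPKM at 24 h, it was higher at 24 h than at 1 h by 1.30 (SE 0.16, limma adjusted p = 1.77e-06).

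Of the 13 dark-induced and carbon starvation genes of a fixed list that reached 10 RPKM at 0 h, SEN1, DIN10, BCE2 and BT2 were members. The other 9 had ratios of 0.258 to 2.01 between 0 h and their highest later time, with a median of 0.735. AKINBETA1 (AT5G21170), a beta subunit of SnRK1, had 52.7, 68.7 and 90.9 RPKM at 0 h and 14.97, 23.4 and 21.9 RPKM at 1 h, and means between 12.7 ± 0.7695 at 12 h and 14.9 ± 2.33 at 6 h (SD, n = 3 each). It was among the genes lost without 0 h replicate 3.

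Stretches of 250 bases before the annotated start of 95 members (the 4 non-coding genes were left out) were searched for 10 short motifs on both strands. TATCCA, known from sugar-repressed promoters of rice, was present in 22 (23.2%) of them, against 13.7% of the 26709 protein-coding genes with such a stretch. The I-box, GATAAG, was in 17 (17.9%, against 12.2%), and a TATA box, TATAAA, in 58 (61.1%, against 47.7%). In 4 members, PLPB, AT2G33830, AT4G35750 and OZF2, an I-box overlapped a TATCCA, which is 4.21% of members and 1.09% of all genes. The stretch of AT4G35750 runs into another annotated gene, AT4G35760. Those of SEN1, HGO, MYB48, AKINBETA1, AT5G56100 and AT1G49032 also run into other annotated genes. TATCCA occurred in 18 of 64 promoters of genes highest in 0 h replicate 3 and in 2 of 23 of genes lowest there. It was in 3 of the 8 promoters of the dark-inducible, dormancy and senescence group, in 0 of the 8 of the wall group and in 0 of the 6 of the auxin, peptide and growth group. The I-box was in 4, 2 and 0 promoters of these groups in turn. At shares of 13.7% and 12.2% over all genes, groups this small would hold few of either motif, and their differences were not tested.

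For the other motifs, the G-box, CACGTG, was in 6.32% of members against 6.58% of all, and CACATG, a variant bound by PIF factors, in 15.8% against 11.2%. The W-box, TTGACC or TTGACT, was in 22.1% against 28.5%, and the auxin element, TGTCTC or TGTCGG, in 9.47% against 14.6%. ACTCAT, read by bZIP factors, was in 8.42% against 12.3%, the brassinosteroid element, CGTGTG or CGTGCG, in 6.32% against 6.72%, and the evening element, AAAATATCT, in 2.11% against 2.396%. A match is a description of these letters and not a site shown to be in use.

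The stretches of PLPB, AT2G33830 and OZF2 show the overlap of both motifs, that of BT2 shows a TATCCA next to the start, and those of DIN10 and BXL1, among the most reduced members, hold neither. They are from RefSeq's TAIR10.1 assembly, are given on the gene's strand and end at the base before the start. Capitals mark TATCCA, the I-box and the TATA box in either direction.
PLPB (chr2:761065-761314, minus strand): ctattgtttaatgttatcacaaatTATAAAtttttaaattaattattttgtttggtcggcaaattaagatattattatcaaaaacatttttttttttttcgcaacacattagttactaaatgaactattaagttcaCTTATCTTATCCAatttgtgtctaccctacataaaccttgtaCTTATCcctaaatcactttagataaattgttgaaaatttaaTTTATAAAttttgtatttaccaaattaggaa
AT2G33830 (chr2:14310609-14310858, minus strand): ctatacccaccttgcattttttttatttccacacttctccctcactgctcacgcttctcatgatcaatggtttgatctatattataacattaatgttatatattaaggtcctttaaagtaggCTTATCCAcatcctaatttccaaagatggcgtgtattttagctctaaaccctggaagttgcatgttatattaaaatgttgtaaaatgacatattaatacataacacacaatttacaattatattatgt
OZF2 (chr4:14393382-14393631, minus strand): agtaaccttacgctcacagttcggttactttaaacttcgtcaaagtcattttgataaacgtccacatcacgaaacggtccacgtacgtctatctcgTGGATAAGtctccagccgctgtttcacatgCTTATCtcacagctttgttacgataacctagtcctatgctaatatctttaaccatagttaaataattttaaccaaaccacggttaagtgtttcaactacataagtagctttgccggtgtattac
BT2 (chr3:17910739-17910988, minus strand): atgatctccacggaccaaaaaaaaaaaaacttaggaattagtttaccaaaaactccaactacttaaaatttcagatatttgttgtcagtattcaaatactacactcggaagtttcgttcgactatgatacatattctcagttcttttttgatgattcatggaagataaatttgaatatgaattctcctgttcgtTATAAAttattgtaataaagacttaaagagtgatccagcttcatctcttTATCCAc
DIN10 (chr5:6833314-6833563, plus strand): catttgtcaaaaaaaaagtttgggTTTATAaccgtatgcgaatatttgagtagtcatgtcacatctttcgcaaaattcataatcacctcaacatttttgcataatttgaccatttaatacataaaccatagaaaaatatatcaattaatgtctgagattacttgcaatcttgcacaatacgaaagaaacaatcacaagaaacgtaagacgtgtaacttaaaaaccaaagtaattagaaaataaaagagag
BXL1 (chr5:20016858-20017107, minus strand): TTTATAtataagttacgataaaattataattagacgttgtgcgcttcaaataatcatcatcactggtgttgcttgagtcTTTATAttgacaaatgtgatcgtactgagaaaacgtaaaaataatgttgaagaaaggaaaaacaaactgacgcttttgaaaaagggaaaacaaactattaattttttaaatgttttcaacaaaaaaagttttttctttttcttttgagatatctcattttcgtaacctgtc

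The 3 largest differences of 3 h from 1 h among the 99 genes were those of BGAL7, BXL1 and BGAL4, enzymes that take apart wall polysaccharides. BXL1 (AT5G49360), a beta-xylosidase that also acts on arabinans, had 841, 1069 and 1405 RPKM at 0 h, 132, 250.1 and 251 RPKM at 1 h, and 29.9, 36.9 and 35.4 RPKM at 3 h. The second part of the course gave 23.3, 25.6 and 27.8 RPKM at 6 h, 35.4, 30.5 and 41.8 RPKM at 12 h, and 25.2 and 27.8 RPKM at 24 h. The 5 libraries from 12 h on spanned 25.2 to 41.8 RPKM, none near the 1 h values, and BXL1 was lower at 3 h than at 1 h by -2.54 (SE 0.22, limma adjusted p = 1.66e-07). BGAL4 (AT5G56870), a beta-galactosidase gene, had 949, 1115 and 1509.9 RPKM at 0 h, 242, 374 and 379 RPKM at 1 h, and 56.3, 60.7 and 57.1 RPKM at 3 h. Values of the remaining libraries were 67.97, 57.5 and 46.2 RPKM at 6 h, 56.7, 46.9 and 45.3 RPKM at 12 h, and 55.4 and 50.7 RPKM at 24 h. BGAL4 kept within 45.3 to 67.97 RPKM from 3 h on, with -2.47 (SE 0.19, limma adjusted p = 2.66e-08) for 3 h against 1 h and no later step that passed the test. BGAL7 (AT5G20710) had 85.2, 106 and 128 RPKM at 0 h, 25.3, 32.8 and 36.2 RPKM at 1 h, 2.33, 3.66 and 2.87 RPKM at 3 h, and 5.55, 5.85 and 4.94 RPKM at 6 h and means of 6.25 and 4.66 RPKM at 12 h and 24 h. Its difference of 3 h from 1 h, -3.04 (SE 0.17, limma adjusted p = 9.97e-10), was the largest of any member.

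Other enzymes of these families returned in part. XYL4 (AT5G64570), another beta-xylosidase, had 394, 354 and 296 RPKM at 0 h, 96.1, 111 and 108 RPKM at 1 h, and 28.4, 29.3 and 27.5 RPKM at 3 h. Later it had 27.1, 23.8 and 28.8 RPKM at 6 h, 98.2, 89.3 and 90.2 RPKM at 12 h, and 81.1 and 96.96 RPKM at 24 h. The 3 values at 12 h and the 2 at 24 h lay above all 6 at 3 h and 6 h, and XYL4 was higher at 12 h than at 6 h by 1.77 (SE 0.10, limma adjusted p = 8.23e-09). BGAL1 (AT3G13750) had 196, 263 and 333 RPKM at 0 h, 52.5, 69.8 and 69.02 RPKM at 1 h, and 22.7, 25.9 and 19.9 RPKM at 3 h. Its later libraries gave 24.6, 23.9 and 30.7 RPKM at 6 h, 56.4, 60.6 and 65.7 RPKM at 12 h, and 74.7 and 81.1 RPKM at 24 h. BGAL1 was higher at 12 h than at 6 h by 1.18 (SE 0.17, limma adjusted p = 3.49e-05), and its 24 h values lay above all 3 at 1 h, a difference that did not pass the test at 0.29 (SE 0.19, limma adjusted p = 0.1604). The pectin acetylesterase gene AT4G19420 kept 23.1%, 6.93%, 7.501%, 14.8% and 17.4% of its 0 h mean at 1, 3, 6, 12 and 24 h.

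EXPA11 (AT1G20190), an expansin that loosens walls, had 23.6, 25.8 and 0.559 RPKM at 0 h, 7.28, 6.64 and 0.6801 RPKM at 1 h, and 0.562, 1.23 and 0.224 RPKM at 3 h. Afterwards its levels were 0.782, 0.561 and 0.675 RPKM at 6 h, 1.56, 1.45 and 1.34 RPKM at 12 h, and 2.24 and 3.22 RPKM at 24 h. Its 0 h replicate 3 lay under the values of 13 of the 14 later libraries, and none of its steps passed the test. Of the other 7 expansin genes that reached 10 RPKM at 0 h, the ratio of 0 h to the highest later time was 0.0689 to 2.14. For the beta-galactosidases, 3 of 10 were members and the other 7 had ratios of 0.369 to 2.38, and for the xylosidases 2 of 3 were members and the other had 0.668.

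**Figure D3:**
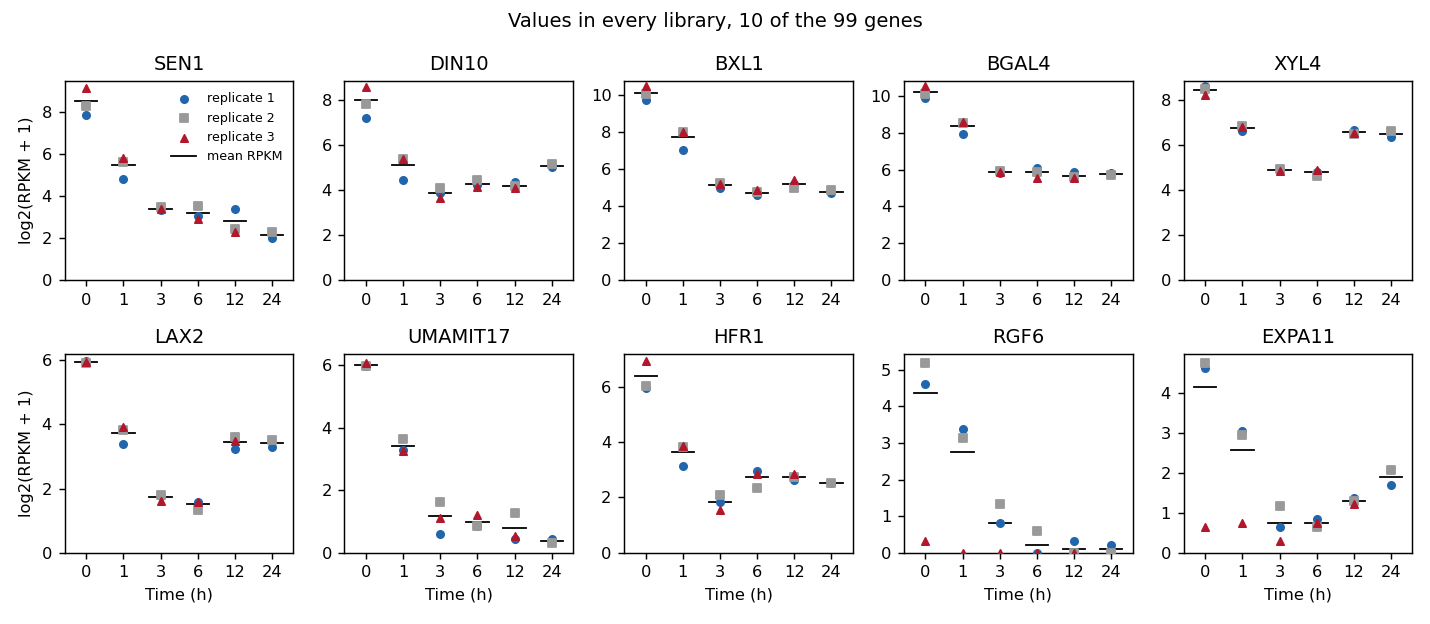
log2(RPKM + 1) (y axis) by time after cutting (x axis, h) in every library for 10 of the 99 genes, with replicate 1 as blue circles, 2 as grey squares, 3 as red triangles and the mean as a black line. XYL4 and LAX2 were higher at 12 h than at 6 h, SEN1 and UMAMIT17 ended at their lowest, and 0 h replicate 3 of RGF6 and EXPA11 lay far under the other 0 h libraries.

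Genes of auxin transport and growth included the steadiest and the most variable of the set. LAX2 (AT2G21050), an auxin influx carrier of vascular tissue, had 61.6, 59.2 and 59.9 RPKM at 0 h, 9.47, 13.05 and 14.3 RPKM at 1 h, and 2.43, 2.48 and 2.07 RPKM at 3 h. The rest of the course gave 1.997, 1.52 and 2.01 RPKM at 6 h, 8.45, 11.2 and 10.1 RPKM at 12 h, and 8.74 and 10.5 RPKM at 24 h. The 0 h values were nearly level, the 6 values at 3 h and 6 h were the lowest, and those at 12 h and 24 h overlapped those at 1 h. LAX2 was lower at 3 h than at 1 h by -1.98 (SE 0.13, limma adjusted p = 5.32e-09) and higher at 12 h than at 6 h by 1.94 (SE 0.13, limma adjusted p = 3.70e-08), the largest such rise in the set. ACL5 (AT5G19530), the thermospermine synthase that holds back xylem differentiation, followed the same shape, with 146, 164 and 202 RPKM at 0 h, 33.6, 42.9 and 51.1 RPKM at 1 h, and 9.33, 10.5 and 12.2 RPKM at 3 h. It then had 11.9, 12.2 and 13.3 RPKM at 6 h, 25.2, 32.1 and 27.5 RPKM at 12 h, and 20.7 and 28.4 RPKM at 24 h. It was higher at 12 h than at 6 h by 1.12 (SE 0.16, limma adjusted p = 3.73e-05) but still lower at 24 h than at 1 h by -0.77 (SE 0.18, limma adjusted p = 0.00108).

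RTFL16 (AT3G25717), a small peptide gene of the ROTUNDIFOLIA-like family, had 116, 87.6 and 73.7 RPKM at 0 h, 19.3, 20.9 and 12.7 RPKM at 1 h, and 6.07, 5.804 and 4.92 RPKM at 3 h. The 8 other libraries gave 8.71, 5.83 and 7.19 RPKM at 6 h, 20.5, 16.3 and 14.5 RPKM at 12 h, and 27.9 and 30.05 RPKM at 24 h. It climbed at each step after 6 h, by 1.14 (SE 0.19, limma adjusted p = 0.000192) for 12 h against 6 h and by 0.74 (SE 0.22, limma adjusted p = 0.0262) for 24 h against 12 h, and both 24 h values lay above all values from 1 to 12 h. The last step no longer passed the test when either 24 h library was left out (adjusted p = 0.102 and 0.166 by limma) or without 12 h replicate 2 or 3 (0.0652 and 0.0909). WAG2 (AT3G14370), a kinase that acts on the PIN auxin carriers, kept 15.95%, 4.19%, 3.14%, 4.63% and 8.62% of its 0 h mean at 1, 3, 6, 12 and 24 h.

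RGF6 (AT4G16515), a secreted peptide gene of the root meristem growth factor family, had 23.3, 35.2 and 0.249 RPKM at 0 h, 9.401, 7.797 and 0 RPKM at 1 h, and 0.753, 1.497 and 0 RPKM at 3 h. The second part of the course gave 0, 0.501 and 0 RPKM at 6 h, 0.249, 0 and 0 RPKM at 12 h, and 0.167 and 0 RPKM at 24 h. Its 0 h replicate 3 lay below 4 of the 6 values at 1 h and 3 h, and RGF6 passed no test between later times. AT4G34760, an auxin-responsive SAUR gene, had 16.5, 15.2 and 3.103 RPKM at 0 h and 2.79, 2.21 and 1.85 RPKM at 1 h and means under 1 RPKM from 3 h on. The means of RGF6 at 6, 12 and 24 h and of AT4G34760 at 6 and 12 h were worth fewer than 3 reads, so that no fold from them is meaningful beyond that floor. LAX2 was the 1 member of 15 auxin carrier genes at 10 RPKM or more at 0 h, and AT4G34760 the 1 of 7 SAUR genes.

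Transporter genes were represented mainly by amino acid exporters. UMAMIT17 (AT4G08300) had 62.3, 62.1 and 66.4 RPKM at 0 h, 8.704, 11.5 and 8.58 RPKM at 1 h, and 0.532, 2.11 and 1.15 RPKM at 3 h. Values of the remaining libraries were 0.793, 0.796 and 1.33 RPKM at 6 h, 0.352, 1.41 and 0.441 RPKM at 12 h, and 0.353 and 0.236 RPKM at 24 h. No value from 3 h on came near those at 1 h, and UMAMIT17 was lower at 24 h than at 1 h by -3.03 (SE 0.27, limma adjusted p = 5.70e-08). UMAMIT33 (AT4G28040), UMAMIT11 and UMAMIT31 kept 14.7%, 18.3% and 18.3% of their 0 h means at 24 h. UMAMIT31 fell at 6 h, by -0.75 (SE 0.17, limma adjusted p = 0.00329) against 3 h, and was higher again at 12 h, by 0.87 (SE 0.17, limma adjusted p = 0.000674) against 6 h. GDU3 (AT5G57685), a glutamine dumper gene that promotes amino acid export, had 84.3, 84.8 and 93.96 RPKM at 0 h, 16.05, 14.4 and 15.4 RPKM at 1 h, and 9.49, 8.25 and 6.79 RPKM at 3 h. Later it had 9.87, 11.4 and 6.82 RPKM at 6 h, 18.1, 17.8 and 14.5 RPKM at 12 h, and 21.8 and 21.1 RPKM at 24 h. GDU3 was higher at 12 h than at 6 h by 0.80 (SE 0.14, limma adjusted p = 0.000298), and its 24 h values lay above all 3 at 1 h. The call of 24 h above 1 h for GDU3 was lost with median centring (0.091, limma adjusted p = 0.633). It was also lost with quantile normalization (0.233, limma adjusted p = 0.206). Without 24 h replicate 1 or 2 the difference was 0.44 or 0.49. Of 22 amino acid exporter genes at 10 RPKM or more at 0 h, 5 were members, and the other 17 had ratios of 0.304 to 2.79.

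NRT1.5 (AT1G32450), which loads nitrate into the xylem, had 181, 225 and 285 RPKM at 0 h, 40.9, 57.97 and 49.3 RPKM at 1 h, and 23.9, 33.6 and 24.5 RPKM at 3 h. Its later libraries gave 10.7, 18.6 and 8.81 RPKM at 6 h, 19.1, 19.95 and 13.6 RPKM at 12 h, and 9.68 and 9.39 RPKM at 24 h. All values from 6 h on lay under those at 3 h, and NRT1.5 was lower at 6 h than at 3 h by -1.10 (SE 0.24, limma adjusted p = 0.00253). GLTP2 (AT1G21360), a glycolipid transfer protein gene, had 27.1, 33.7 and 57.6 RPKM at 0 h, 3.44, 6.57 and 5.87 RPKM at 1 h, and 2.06, 2.17 and 2.05 RPKM at 3 h, and was higher at 12 h than at 6 h by 0.67 (SE 0.23, limma adjusted p = 0.02598). AT1G52190, a major facilitator gene placed with the nitrate and peptide transporters, had 30.7, 36.04 and 7.298 RPKM at 0 h and 7.15, 8.37 and 2.205 RPKM at 1 h. Replicate 3 was low in both of those groups, and its values at 0 h and 1 h overlapped.

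Of the 6 lipase and cuticle genes, all were lower at 3 h than at 1 h, against 73 of the 99 and 22.2% of all tested genes. At 24 h, 5 of the 6 were lower than at 1 h, against 50 of the 99 and 21.3% of all tested genes. AT3G16370, the GDSL lipase gene at the edge of the limit, had 188, 164 and 28.2 RPKM at 0 h, 67.9, 42.3 and 14.03 RPKM at 1 h, and 6.496, 14.2 and 5.37 RPKM at 3 h. Afterwards its levels were 3.19, 2.94 and 2.03 RPKM at 6 h, 7.197, 1.68 and 1.596 RPKM at 12 h, and 1.57 and 0.842 RPKM at 24 h. Its 0 h replicate 3 lay below 2 of the 3 libraries at 1 h, and both 24 h values lay under all 9 at 0, 1 and 3 h. WSD1 (AT5G37300), a wax ester synthase gene, had 28.5, 22.4 and 7.78 RPKM at 0 h, 7.45, 5.75 and 3.05 RPKM at 1 h, and 1.09, 1.77 and 0.463 RPKM at 3 h. The rest of the course gave 1.16, 0.8504 and 0.388 RPKM at 6 h, 0.308, 0.617 and 0.463 RPKM at 12 h, and 0.0515 and 0 RPKM at 24 h. It was lower at 3 h than at 1 h by -1.59 (SE 0.38, limma adjusted p = 0.00204), and its 24 h values are worth fewer than 3 reads. AT5G56100, annotated as a glycine-rich protein or oleosin, was the exception in replicate 3, with 87.04, 111 and 165 RPKM at 0 h, 16.9, 28.2 and 21.7 RPKM at 1 h, and 2.81, 3.995 and 5.003 RPKM at 3 h. It then had 1.998, 3.21 and 2.41 RPKM at 6 h, 1.595, 2.598 and 0.6004 RPKM at 12 h, and 0.534 and 0.134 RPKM at 24 h. It had the largest fall of the 99 between 1 h and 24 h, at -4.11 (SE 0.33, limma adjusted p = 2.59e-08).

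The 12 catabolic and other enzymes had a median 0 h mean of 20.4 RPKM and a median of 10.5% left at 3 h. AGT (AT2G13360), the alanine:glyoxylate aminotransferase of photorespiration, had 28.96, 52.8 and 81.3 RPKM at 0 h, 10.01, 20.4 and 19.6 RPKM at 1 h, and 2.08, 3.55 and 2.897 RPKM at 3 h. The 8 other libraries gave 2.73, 7.05 and 1.91 RPKM at 6 h, 4.37, 4.88 and 2.57 RPKM at 12 h, and 1.49 and 0.664 RPKM at 24 h. AGT was lower at 3 h than at 1 h by -2.16 (SE 0.41, limma adjusted p = 0.000382) and at 24 h than at 1 h by -3.06 (SE 0.46, limma adjusted p = 2.89e-05). GLYI7 (AT1G80160), of the glyoxalase I family, had 5.71, 16.7 and 26.7 RPKM at 0 h, 1.61, 2.66 and 2.95 RPKM at 1 h, and 0.618 and 0.265 RPKM at 24 h. Its lowest 0 h value lay above its highest at 1 h, and only its difference of 24 h from 1 h passed the test, at -1.23 (SE 0.45, limma adjusted p = 0.0222). The test for any change among the later times of GLYI7 did not pass (limma F test, adjusted p = 0.111). HGO, the homogentisate dioxygenase of tyrosine breakdown, kept 30.2%, 22.4%, 27.9%, 23.1% and 16.7% at 1, 3, 6, 12 and 24 h, and ACR9, an ACT domain gene, 32.6%, 10.1%, 10.6%, 10.03% and 9.49%. AT2G01900, a DNase I-like gene, had the largest rise of the 99 between 12 h and 24 h, with 1.39, 0.905 and 1.32 RPKM at 6 h, 1.47, 0.656 and 0.4104 RPKM at 12 h, and 4.71 and 6.25 RPKM at 24 h, a difference of 1.84 (SE 0.24, limma adjusted p = 8.12e-05) for 24 h against 12 h.

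Regulators of transcription and chromatin made up 10 of the 99 genes. HFR1 (AT1G02340), a helix-loop-helix protein that restrains the PIF factors, had 60.2, 64.4 and 120.2 RPKM at 0 h, 7.86, 13.2 and 13.6 RPKM at 1 h, and 2.56, 3.25 and 1.93 RPKM at 3 h. The second part of the course gave 6.705, 4.08 and 6.13 RPKM at 6 h, 5.17, 5.69 and 6.104 RPKM at 12 h, and 4.75 and 4.69 RPKM at 24 h. It was lower at 3 h than at 1 h by -1.79 (SE 0.25, limma adjusted p = 1.72e-05) and higher at 6 h than at 3 h by 0.88 (SE 0.25, limma adjusted p = 0.0126), a call that was lost without 3 h replicate 3 or 6 h replicate 1 (limma adjusted p = 0.0571 and 0.0557). BEE2 (AT4G36540) and HBI1 (AT2G18300), helix-loop-helix genes that promote growth under brassinosteroids, kept 19.8%, 11.4%, 10.2%, 12.96% and 7.003% and 21.997%, 2.7999%, 2.37%, 2.58% and 2.7996% of their 0 h means at 1, 3, 6, 12 and 24 h. The means of HBI1 at 3, 6 and 12 h were 0.297, 0.252 and 0.273 RPKM. These lie within the 0.145 to 0.389 RPKM that 3 reads on 1 kb are worth, so its percents are rough. HFR1 was the 1 member of 8 genes of a list of PIF and dark growth genes, and BEE2 the 1 of 15 brassinosteroid genes, at 10 RPKM or more at 0 h.

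HIS1-3 (AT2G18050), a linker histone gene known to respond to drought, had 198, 228 and 347 RPKM at 0 h, 38.9, 76.1 and 64.5 RPKM at 1 h, and 17.8, 19.2 and 14.4 RPKM at 3 h. Values of the remaining libraries were 39.2, 31.4 and 29.3 RPKM at 6 h, 53.7, 59.1 and 62.99 RPKM at 12 h, and 22.7 and 36.2 RPKM at 24 h. It was lower at 3 h, higher at 6 h and again at 12 h, and lower at 24 h, each against the time before, with differences of -1.70, 0.92 (SE 0.25, limma adjusted p = 0.0102), 0.80 (SE 0.25, limma adjusted p = 0.0148) and -1.002 (SE 0.28, limma adjusted p = 0.0206). The last of these was not called without 12 h replicate 3 or without 24 h replicate 1 (limma adjusted p = 0.0605 and 0.244). MYB59 (AT5G59780) had 248, 261 and 352 RPKM at 0 h, 85.8, 79.8 and 83.6 RPKM at 1 h, and 63.7, 58.2 and 69.7 RPKM at 3 h, and kept 28.96%, 22.3%, 25.1%, 27.5% and 28.5% of its 0 h mean at the 5 later times. MYB48 (AT3G46130) kept 20.1%, 25.2%, 26.7%, 17.1% and 9.96%. It was lower at 12 h than at 6 h by -0.58 (SE 0.23, limma adjusted p = 0.0478), a call that most single-library omissions removed. NAC2 (AT3G15510) had 15.5, 18.7 and 30.4 RPKM at 0 h, 5.82, 7.18 and 6.43 RPKM at 1 h, 1.65, 2.11 and 1.88 RPKM at 3 h, and 3.05, 3.61 and 3.86 RPKM at 6 h, and was higher at 6 h than at 3 h by 0.64 (SE 0.17, limma adjusted p = 0.00943). Of 30 MYB genes at 10 RPKM or more at 0 h, 2 were members, and of 28 NAC genes 1.

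The zinc finger gene OZF2 (AT4G29190) had 12.96, 14.2 and 13.7 RPKM at 0 h, a narrow spread, while ATCTH (AT2G25900), also of the CCCH type, had 15.2, 19.97 and 42.7 RPKM, a wide one. OZF2 was higher at 24 h than at 1 h by 0.47 (SE 0.15, limma adjusted p = 0.00839). That call was lost with median centring (0.099, limma adjusted p = 0.552), with quantile normalization (0.01996, limma adjusted p = 0.904) and without 24 h replicate 2 (0.33, limma adjusted p = 0.122), and none of the steps of ATCTH passed the test.

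In signalling and protein turnover, PP2-A13 (AT3G61060), an F-box gene, had 138, 229 and 318 RPKM at 0 h, 23.98, 36.8 and 39.1 RPKM at 1 h, and 18.8, 20.8 and 18.5 RPKM at 3 h. Later it had 7.94, 9.36 and 8.46 RPKM at 6 h, 7.84, 10.6 and 6.38 RPKM at 12 h, and 4.69 and 6.18 RPKM at 24 h. It fell at 3 h and again at 6 h, by -1.09 (SE 0.25, limma adjusted p = 0.00387) for 6 h against 3 h, and no library from 6 h on overlapped those at 3 h. PLPB (AT2G02710), with a light-sensing LOV domain, had 66.95, 80.2 and 129.97 RPKM at 0 h, 12.9, 19.3 and 16.8 RPKM at 1 h, and 10.03, 11.1 and 11.5 RPKM at 3 h. Its later libraries gave 18.5, 16.001 and 16.3 RPKM at 6 h, 15.5, 13.4 and 17.5 RPKM at 12 h, and 13.02 and 16.6 RPKM at 24 h. PLPB was higher at 6 h than at 3 h by 0.59 (SE 0.20, limma adjusted p = 0.02895). The test for any change among its later times did not pass (limma F test, adjusted p = 0.0679). PI4K GAMMA 7 (AT2G03890), a phosphoinositide 4-kinase-like gene, had 120.4, 128 and 164 RPKM at 0 h, 17.5, 21.5 and 21.3 RPKM at 1 h, and 22.97, 24.02 and 23.4 RPKM at 3 h. Afterwards its levels were 34.9, 32.8 and 34.4 RPKM at 6 h, 38.4, 34.1 and 38.3 RPKM at 12 h, and 37.2 and 38.8 RPKM at 24 h. Its 8 values from 6 h on all lay above all 3 at 1 h, and it was higher at 24 h than at 1 h by 0.89 (SE 0.11, limma adjusted p = 3.51e-06). PFA-DSP5 (AT5G16480), a tyrosine phosphatase gene, was lower at 6 h than at 3 h by -0.43 (SE 0.13, limma adjusted p = 0.0145) and higher at 12 h than at 6 h by 0.51 (SE 0.13, limma adjusted p = 0.00324). The first of these calls was lost without 3 h replicate 2 or 6 h replicate 2 (limma adjusted p = 0.0549 and 0.0634).

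The tests between later times covered all 99 genes within a fit over 19656. The choice of genes held every later mean of the members under the 3-fold limit, a cap that the other tested genes did not have. It left members limited room to rise from 1 h but did not limit their falls. The splits against 1 h, at 3 h and at 24 h, are therefore partly set by the choice. At 3 h against 1 h, 73 members were lower and 1, AT3G51400, was higher, against 22.2% lower and 38% higher of all tested genes. The median log2 difference was -0.91 for the members and 0.14 for all tested genes. At 6 h against 3 h, 9 members were lower and 14 higher (14.4% and 19.2% of all tested genes). Their median was 0.00 and that of all tested genes 0.04. At 12 h against 6 h, 5 members were lower and 31 higher (16.5% and 32.1%), with medians of 0.22 and 0.13, so that the members' shares were near or below those of all genes. At 24 h against 12 h, 9 were lower and 5 higher (8.11% and 10.3%), with medians of -0.04 and 0.03.

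At 24 h against 1 h, 50 members were lower and 11 higher, against 21.3% lower and 54% higher of all tested genes, and the medians were -0.52 for the members and 0.42 for all. With the median of all tested genes subtracted, the members' median was -1.04 at 3 h against 1 h and -0.94 at 24 h against 1 h. With every library centred on its median, the split at 24 h against 1 h became 67 lower and 3 higher, and that at 12 h against 6 h became 8 lower and 24 higher. Any change among the later times was found for 89 members (88.3% of all tested genes), a share that does not set the members apart. A fall at 3 h followed by a rise at 12 h was called for 22 members (against 8.96% of all tested genes). Among them were LAX2, XYL4, BGAL1, ACL5, RTFL16, GDU3, GLTP2 and HIS1-3. Of the genes lower at 3 h than at 1 h, this was 22 of 73 members and 1762 of 4368 tested genes. Members that fell at 3 h were thus called higher at 12 h less often than tested genes that fell. At least 1 fall and no rise was called for 45 members (against 15.5% of all tested genes). Among them were SEN1, DIN10, BXL1, BGAL4, UMAMIT17, AGT, PP2-A13 and NRT1.5. No step was called for 11 (against 16.7% of all tested genes). These counts are descriptions, and their difference from all genes was not tested. CASP1 and the light harvesting genes were also higher at 12 h than at 6 h, as given above, and their part in the members called higher at that step was not tested.

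**Figure D4:**
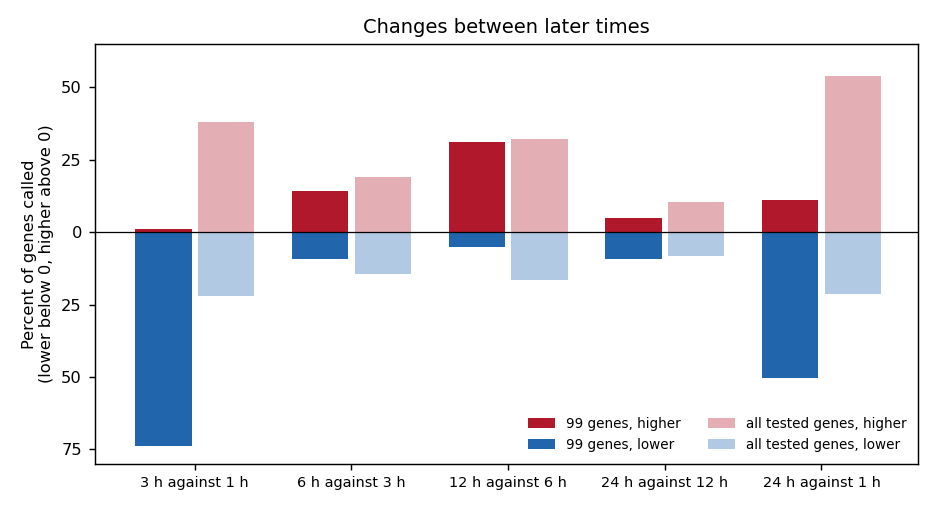
Percent of genes called higher (red, above 0) or lower (blue, below 0) between later times (x axis) by limma at an adjusted p of 0.05, for the 99 genes (full colour, left bar) and all 19656 tested genes (pale, right bar). At 3 h against 1 h 73 of the 99 were lower, against 22.2% of all tested genes, and at 12 h against 6 h the shares higher were 31 of 99 and 32.1%. The choice of genes limits how far the 99 could rise, but not how far they could fall.

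The calls were also counted by the side of 0 h replicate 3. Of the 68 genes highest there, 48 were lower at 3 h than at 1 h, 13 were higher at 6 h than at 3 h, and 9 were lower and 0 higher at 24 h than at 12 h. Of the 23 genes lowest there, 19 were lower at 3 h than at 1 h, 0 were higher at 6 h than at 3 h, and 0 were lower and 3 higher at 24 h than at 12 h. The median level left at 24 h was 13.9% in the group of 68 and 9.36% in the group of 23. Over all tested genes the shares were 22.2% lower at 3 h than at 1 h, 19.2% higher at 6 h than at 3 h, and 8.11% lower and 10.3% higher at 24 h than at 12 h, so the 13 of 68 lay near the share of all genes. The difference between the groups of 68 and 23 was not tested.

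All 99 genes were found in RefSeq's annotation of TAIR10.1, 4 of them as non-coding RNAs. They lay on all chromosomes, 20, 15, 16, 20 and 28 of them on chromosomes 1, 2, 3, 4 and 5. A single exon made up 33 of them (33.3%), against 12.2% of the genes with a 0 h mean of at least 10 RPKM, and their exonic length had a median of 1586 bases, against 1766. There were 8 pairs of members less than 50 kb apart. The closest that do not overlap were SEN1 and AT4G35750, an abundant SEC14-like lipid transfer gene, with 2817 bases between them on chromosome 4. AT4G35750 had 725, 808 and 1179 RPKM at 0 h, 208, 304 and 268 RPKM at 1 h, and 204, 219 and 199 RPKM at 3 h, and means of 208, 283 and 212 RPKM at 6, 12 and 24 h, so its later course was flatter than that of SEN1.

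Since it is not stated whether reads were counted by strand, reads of overlapping genes may be shared, and 23 members overlap a listed gene on the other strand. AT1G23050 and the non-coding AT1G23052 cover the same 825 bases on opposite strands and cannot be told apart here. The partners of BGAL4, XYL4 and AT3G16370 were under 1 RPKM at 0 h. That of RGF6 had 8.51 RPKM at 0 h, and that of PP2-A13 41.2 RPKM. The partner exceeded the member at 0 h for AT3G51400, the 1 member called higher at 3 h than at 1 h, where the member had 14.1 RPKM and its partner 30.7 RPKM, and for AT5G64190, where the member had 10.5 RPKM and its partner 27.98 RPKM.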

How the data were processed

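The deposited table gives 1 value per gene and library. Its header names no unit. The values were read as RPKM made by the authors, because low values are whole multiples of a step set by gene and library and column totals differ. The build is TAIR10 per the labels (the submitters' processing notes). Which aligner and counter were used, and whether by strand: not given in the sources used here. Libraries were stranded mRNA libraries per the labels' protocols. Mapped reads were recovered from those steps with RefSeq exonic lengths, each total being the value given by 267 to 390 genes.

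The members and gene lists were chosen with earlier results of these data known. The 19656 genes at 1 RPKM or more in 2 or more libraries were fitted as log2(RPKM + 1) in 1 limma model over all 17 libraries and 6 times (limma 3.58.1, R 4.3.3, trend and robust moderation). Calls used a Benjamini-Hochberg adjusted p of 0.05 over all tested genes. Differences are on that log2 scale, which understates changes of low genes. The fit was tested on simulated data. Gene positions and promoters came from RefSeq's TAIR10.1, by script in Python 3.11.15.

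Named genes were members with the 10 largest ratios and the 8 highest 0 h means, up to 3 per gene list, up to 4 with the largest rise or fall per contrast, the 3 nearest each side of the limit, and the 4 widest and narrowest at 0 h. Others, such as AT2G33830, AT3G63210, AT5G03230, AT5G56100, AT2G01900, ACL5 and AKINBETA1, were chosen after their values were seen. In 45 lists, 14 held members. Alternatives were other pseudocounts, filters, scalings, moderation, a replicate block and each library left out.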

Additional observations from a re-analysis of the deposited data

How the results depend on the processing

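The number of genes that meet the limits was set by the fold, with 38 genes at 4-fold, 411 at 2-fold and 28 when every 0 h library had to exceed every later library 3-fold, the last including SEN1, DIN10, BXL1, LAX2 and UMAMIT17. Leaving out single libraries gave 97 to 120 genes. Among the called genes with a symbol and the largest rise or fall per contrast, no direction reversed in any alternative run. The other members were not checked for this. At 12 h against 6 h, 20 members were higher with quantile normalization, and 3 were lower without the filter and 8 with median centring. At 24 h against 1 h, 3 members were higher with median centring and 5 with quantile normalization. With 150 bases in place of 250, TATCCA was in 14.7% of member promoters (8.24% of all), the W-box in 14.7% (19.1%), ACTCAT in 4.21% (7.48%) and the TATA box in 50.5% (34.3%). The auxin element was then in 8.42% (9.33%), near the share of all, CACATG in 12.6% (6.92%) and the I-box in 15.8% (7.59%). The G-box was in 5.26% (4.87%), the brassinosteroid element in 4.21% (4.66%) and the evening element in 1.05% (1.46%).

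Leaving out each library in turn gave 61 to 77 members lower and 0 to 2 higher at 3 h against 1 h. At 6 h against 3 h the range was 7 to 10 lower and 7 to 17 higher, with 9 and 7 higher without 3 h replicate 2 or 3 and 8 without 6 h replicate 1. At 12 h against 6 h it was 2 to 7 lower and 24 to 33 higher, the lower count being 3 without 0 h replicate 2, 3 h replicate 1 or 12 h replicate 3 and 2 without 6 h replicate 2. At 24 h against 12 h it was 2 to 13 lower and 1 to 7 higher, with 2 lower and 2 higher without 24 h replicate 1, 4 and 1 without 24 h replicate 2, and 2 higher without 12 h replicate 3. At 24 h against 1 h it was 40 to 56 lower and 6 to 12 higher, with 6 higher without 24 h replicate 2. Of the values for single genes, 651 kept their call and 39 did not pass the test in an alternative, all for MYB48, RTFL16, OZF2, HIS1-3, UMAMIT33, GDU3, HFR1 or PFA-DSP5. The cause was not tested.

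With the replicate number as a block, 73 members were lower and 1 higher at 3 h against 1 h, 10 and 16 at 6 h against 3 h, 6 and 33 at 12 h against 6 h, 10 and 4 at 24 h against 12 h, and 53 and 12 at 24 h against 1 h. Libraries of the same number correlated at -0.173 to 0.343 (median 0.0733, with 16 of 40 pairs over 0.1) in their deviations from the group means, and those of different numbers at -0.311 to 0.197 (median -0.0454, with 12 of 80 over 0.1). Since the labels name no shared source and not every same-number pair was over 0.1, the numbers were not taken as pairs, but 13 of 17 libraries correlated best with their own number, a hint from the data that the numbers may mark something shared. Depth limits the levels of the members under 3 reads, 4 at 12 h and 4, not all the same, at 24 h, and with 2 libraries at 24 h the steps to that time rest on the spread at the other times.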
